A study of Mus musculus with 13 samples.

Results

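The 10 genes described here encode receptors and ligands that steer T cell traffic: the chemokine receptors Ccr2, Ccr4, Ccr7, Ccr8, Ccr9 and Cxcr4, the sphingosine 1-phosphate (S1P) receptors S1pr1 and S1pr4, the selectin ligand Selplg, and the hyaluronan receptor Cd44. They were taken by symbol from a table of 26720 genes, and all 10 were in it and passed the low-count filter that left 24068 genes for testing. RNA was measured in CD4+YFP+ regulatory T (Treg) cells from the spleens of mice about 4 to 5 weeks old, where YFP reports Foxp3, the transcription factor that defines Treg cells. The deleted group (n = 6) has the genotype Foxp3YFPCre/+Stk3∆/∆Stk4∆/∆, in which Cre deletes Stk3 and Stk4, the Hippo kinases MST2 and MST1. The control group (n = 7) is labelled Foxp3YFPCre, so both groups carry the Cre-YFP allele. Cre is driven by Foxp3 and acts in cells that express it. Foxp3 lies on chromosome X, so a heterozygous female keeps Treg cells without active Cre, which the YFP sort leaves out. The labels give no zygosity for the control allele and do not tie libraries to separate mice, so each p-value reflects library-to-library spread, which may be technical.

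Chemokine receptors are G protein-coupled receptors that direct cells along chemokine gradients. S1P receptors draw lymphocytes out of lymphoid organs into blood and lymph, and selectin ligands and CD44 let cells roll and attach on vessel walls and matrix. Resting Treg cells carry receptors for lymphoid organs such as CCR7, whereas activated Treg cells gain receptors for skin, gut and inflamed tissue such as CCR4 and CCR8.

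Total counts ran from 2671660 to 4569655 in deleted and from 3705511 to 8323919 in control libraries (exact permutation test, two-sided, p = 0.00466). Olfactory and vomeronasal receptor genes (1482 genes, called sensory receptor genes here), which have no known use in T cells, were counted in all 13 libraries. They took 0.761 to 1.89% of the total in deleted and 0.371 to 1.07% in control libraries (exact permutation test, two-sided, p = 0.00699). Stk3 was at 26.8 to 44.2 counts per 1e+06 counts of the library (CPM, with TMM scaling factors) in deleted and 24.8 to 47.9 CPM in control libraries, and Stk4 at 57.9 to 394 CPM and 136 to 291 CPM. Neither passed the test, and a count summed over the gene cannot reveal that single exons are gone, so these levels check nothing about the labels. All 8 Treg marker genes were in the table with none at 0 in any library, and their summed level was 976 to 1932 CPM in deleted and 1380 to 5721 CPM in control libraries. Of them 6 were called lower, and Foxp3 (44.0 ± 16.2 CPM, SD, n = 6, and 54.1 ± 12.1 CPM, SD, n = 7) was not. Over all genes 400 were called higher and 2050 lower in deleted libraries by edgeR's quasi-likelihood test with a Benjamini-Hochberg adjusted p under 0.05. Other scalings moved the median gene up by 0.18 (upper quartile), 0.32 (library size alone) and 0.35 (by genes of at least 50 mean CPM) on the log2 scale.

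Of the 10 genes, 3 fell upon deletion, Ccr8, Ccr4 and Selplg, while the test was not passed by the other 7. Over all 24068 genes tested, 8.52% were called lower and 1.66% higher. The direction of calls over all genes depended on the fit, and the homing genes are read against it. By upper quartile scaling 5.02% of genes were called lower and 3.16% higher, by library size alone 3.28% and 4.53%, and by scaling on genes of at least 50 mean CPM 2.9% and 3.66%; each called Ccr8 alone among the 10. DESeq2 called 4 of the 10 lower (10.9% of all genes lower, 3.08% higher), adding Cd44, and limma-voom 5 (12.2% lower, 4.88% higher), adding Cd44 and S1pr4. After adjusting for the log2 share of sensory receptor counts (the receptor share, entered as a covariate) 0 of the 10 were called by edgeR (at an unadjusted p under 0.05 none was lower, and Ccr7 and S1pr1 were higher), beside 0.233% of genes lower and 0.224% higher. Among the 9 libraries of similar share it was also 0 (0.418% lower, 0.157% higher), with Ccr8 and Ccr4 lower at an unadjusted p under 0.05. Of the 8 homing genes with at least 50 mean CPM, 2 were called lower (25%), beside 23.8% of the 5204 genes at that level, of which 0.596% were called higher. The median log2 fold change was -0.53 over the 10 genes, -0.38 over genes of at least 50 mean CPM and 0.06 over all genes tested. The log2 fold change was below 0 for 8 of the 10 genes and above 0 for Ccr9 and Cxcr4. None of the 10 was called higher by edgeR (0 at an unadjusted p under 0.05 with TMM scaling, and 1, Ccr9, with each of the 3 other scalings), by DESeq2 or by limma-voom. In bulk RNA, fewer cells that carry a receptor and less receptor RNA per cell cannot be told apart.

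**Figure D1:**
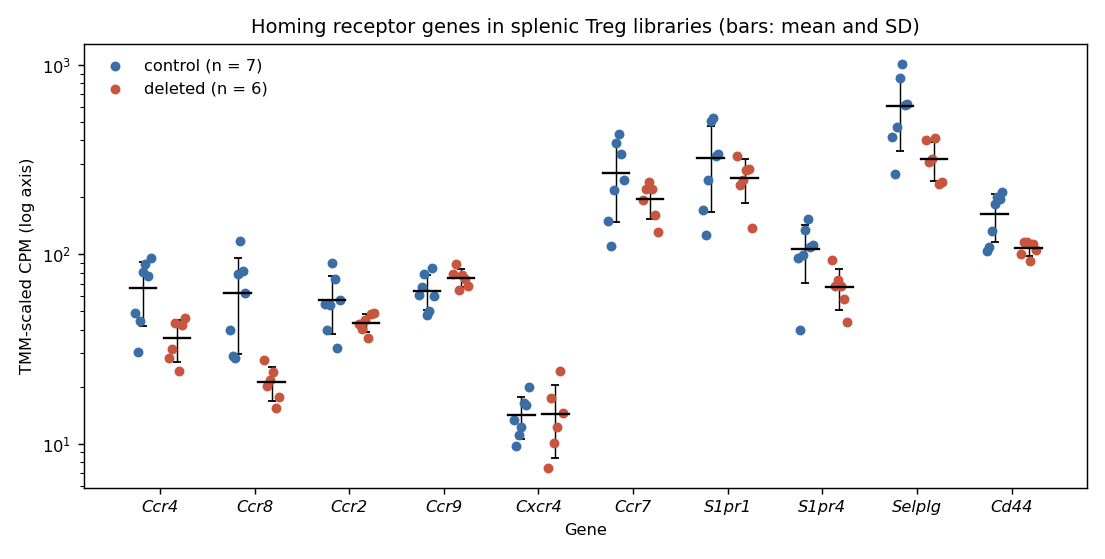
Level of the 10 homing genes in each library, as TMM-scaled CPM on a log axis. Points are libraries (7 control, 6 deleted), bars the mean and SD. Ccr8 is the gene whose groups do not overlap, with deleted libraries at 15.5 to 27.7 CPM and control libraries at 28.4 to 118 CPM.

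Ccr8 (gene number 12776; GRCm38 chromosome 9, 120092133 to 120094906) encodes the receptor for CCL1 and marks activated, tissue-homing Treg cells. Its level was 15.5, 21.0 and 27.7 CPM (lowest, median, highest) in deleted and 28.4, 62.2 and 118 CPM in control libraries. All 6 deleted libraries lay below the lowest control library, by a narrow margin at the edge; such separation held for 1.44% of all genes tested. The means were 21.1 ± 4.38 CPM (SD, n = 6) and 62.6 ± 32.8 CPM (SD, n = 7). On the log2 scale the difference was -1.57 (SE 0.29, adjusted p = 0.00268 by edgeR's quasi-likelihood test), or 0.338 times the control level. The sensory receptor genes give a rough guide to background counts, in CPM and not per length: their 90th percentile ran from 9.29 to 23.1 CPM over the libraries. Ccr8 exceeded it in 11 of 13 libraries and lay under it in deleted replicates 5 (15.5 against 19.8 CPM) and 7 (17.7 against 23.1 CPM). After adjusting for the receptor share the Ccr8 value was -0.54 (SE 0.27, adjusted p = 0.594), and among the 5 deleted and 4 control libraries with a share of 0.7 to 1.4% it was -0.87 (SE 0.27, adjusted p = 0.188). Neither passed the test. That share had a correlation of 0.692 with genotype over the 13 libraries, so it and the deletion cannot be told apart here.

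Ccr4 (gene number 12773; chromosome 9, 114490316 to 114505476), the receptor for CCL17 and CCL22 that guides T cells to skin and to dendritic cells, was at 24.2, 37.1 and 46.2 CPM in deleted and 30.5, 76.8 and 95.3 CPM in control libraries. All 6 deleted libraries lay below the control median, and control replicates 2 and 3 lay within the deleted range, with control replicate 1 just above it. The log2 fold change was -0.89 (SE 0.25, adjusted p = 0.0271 by edgeR's quasi-likelihood test), or 0.541 times the control level. The call ended when any of 6 libraries was left out (deleted replicates 2 and 4, control replicates 4, 5, 6 and 7; adjusted p from 0.0551 to 0.0658). It also ended after adjusting for the receptor share (-0.58, SE 0.34, adjusted p = 0.675) and by the 3 scalings given above (-0.66, -0.47 and -0.41).

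The start regions of both receptor genes that fell are shown beside that of Ccr9, a gut-homing receptor gene that did not pass the test. Each is the RefSeq window of 300 bases (GRCm38.p6), from 250 bases before the annotated start to 50 after it, 5′ to 3′ on the strand of the gene. For Ccr4 that annotated start lies inside the gene span given above. Capitals mark 2 searched patterns, on either strand: CACCC, the core bound by Krüppel-like factors, and GGG and CC with any 5 bases between them, a loose form of the NF-kB site (the gapped pattern).
Ccr8, chr9:120091883-120092182, plus strand: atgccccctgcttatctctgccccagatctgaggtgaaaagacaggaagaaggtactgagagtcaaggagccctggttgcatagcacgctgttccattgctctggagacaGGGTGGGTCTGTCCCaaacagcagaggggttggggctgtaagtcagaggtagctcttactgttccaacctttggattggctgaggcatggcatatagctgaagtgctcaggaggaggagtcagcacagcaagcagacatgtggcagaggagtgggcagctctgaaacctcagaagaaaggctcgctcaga
Ccr4, chr9:114496495-114496794, minus strand: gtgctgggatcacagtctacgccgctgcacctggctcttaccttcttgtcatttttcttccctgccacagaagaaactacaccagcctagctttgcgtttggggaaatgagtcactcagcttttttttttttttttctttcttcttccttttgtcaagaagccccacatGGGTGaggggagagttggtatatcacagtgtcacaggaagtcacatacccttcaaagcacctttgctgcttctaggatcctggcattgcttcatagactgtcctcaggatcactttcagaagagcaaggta
Ccr9, chr9:123766961-123767260, plus strand: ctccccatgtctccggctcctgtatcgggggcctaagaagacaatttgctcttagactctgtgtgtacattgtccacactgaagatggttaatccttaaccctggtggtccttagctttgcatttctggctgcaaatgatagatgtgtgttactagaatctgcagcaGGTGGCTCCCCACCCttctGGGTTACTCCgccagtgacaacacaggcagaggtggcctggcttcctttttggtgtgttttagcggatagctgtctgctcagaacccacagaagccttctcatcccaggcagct
In Ccr8, CACCC was found on the reverse strand at -140 to -136, counted from the annotated start of the window. It shared a base with the gapped pattern at -136 to -127, which overlapped a reverse-strand match at -135 to -126. Ccr4 held CACCC alone, on the reverse strand at -81 to -77. Ccr9 held CACCC at -73 to -69 and the gapped pattern at -83 to -74 (reverse strand) and -64 to -55. Among the 7 of 10 genes with a window, CACCC was in 5 and the gapped pattern in 3 (Ccr8, Ccr9 and Cd44), beside 57.5% and 50.8% of 32851 RefSeq windows. The forkhead core TGTTTAC was in 0 of the 7, beside 3.65% of all windows. The patterns thus occurred in genes that fell and in genes that did not pass the test.

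Selplg (gene number 20345; chromosome 5, 113817798 to 113832528) encodes PSGL-1, the main ligand of P-selectin on T cells. It was at 235, 313 and 410 CPM in deleted and 266, 619 and 1012 CPM in control libraries. Deleted replicates 5 and 7 lay below every control library, and control replicate 2, the lowest, lay within the deleted range. The log2 fold change was -0.94 (SE 0.30, adjusted p = 0.0477 by edgeR's quasi-likelihood test), just inside the threshold. It missed the threshold by upper quartile scaling (-0.71, adjusted p = 0.0699), by library size alone (-0.54, adjusted p = 0.0846) and by scaling on genes of at least 50 mean CPM (-0.49, adjusted p = 0.0804). Leaving out any of 10 libraries (all but deleted replicate 1 and control replicates 1 and 2) ended the call, with adjusted p from 0.0532 to 0.135. After adjusting for the receptor share Selplg was at -0.03 (SE 0.23, adjusted p = 0.984). Among the 5204 genes of at least 50 mean CPM, scaled and tested alone, Selplg was the 1 gene called of the 8 homing genes tested. It was at -0.49 (adjusted p = 0.0483), where 15.6% of genes were called lower and 9.38% higher. Ccr8 and Cxcr4 lie under that cutoff and were not tested in that fit.

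Cd44 (gene number 12505; chromosome 2, 102811141 to 102901669), whose product binds hyaluronan and rises on activated T cells, was at 92.3, 110 and 116 CPM in deleted and 104, 184 and 213 CPM in control libraries. The deleted libraries were tightly grouped (coefficient of variation 9.07%), and the control libraries spread more widely (28.2%). Control replicates 1 and 2, at 104 and 109 CPM, lay within the deleted range, and the other 5 control libraries lay above it. The log2 fold change of -0.60 (SE 0.22, adjusted p = 0.0813 by edgeR's quasi-likelihood test) did not pass the test. It passed by DESeq2 (adjusted p = 0.0298) and limma-voom (adjusted p = 0.0402), and when control replicate 1 or 2 was left out (adjusted p = 0.0379 and 0.0272).

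Ccr7 (gene number 12775; chromosome 11, 99144199 to 99155077), the receptor for CCL19 and CCL21 that brings T cells into lymphoid organs, was at 132, 208 and 240 CPM in deleted and 111, 248 and 432 CPM in control libraries. The deleted range fell inside the control range. Its log2 fold change was -0.46 (SE 0.29, adjusted p = 0.322 by edgeR's quasi-likelihood test). S1pr1 (gene number 13609; chromosome 3, 115710433 to 115715055), the receptor that drives exit from lymphoid organs, was at 138, 263 and 333 CPM and 127, 330 and 525 CPM, with -0.35 (SE 0.31, adjusted p = 0.498). Here too the deleted range lay within the control range, with control replicate 2 below all 6 deleted libraries and control replicate 1 below 5 of them. The sign of both genes turned positive by scaling on genes of at least 50 mean CPM (0.01 and 0.11) and after adjusting for the receptor share (0.54, adjusted p = 0.551, and 0.75, adjusted p = 0.262). S1pr4 (gene number 13611; chromosome 10, 81497745 to 81500137), an S1P receptor largely restricted to blood cells, was at 44.2, 68.0 and 94.0 CPM in deleted and 39.7, 110 and 154 CPM in control libraries. Control replicate 2 was the lowest of all 13, and the other 6 control libraries lay above every deleted library. Its log2 fold change of -0.66 (SE 0.25, adjusted p = 0.0913) did not pass the test, although it did with control replicate 2 left out (-0.80, adjusted p = 0.00877), with deleted replicate 1 left out (-0.78, adjusted p = 0.0476) and by limma-voom (adjusted p = 0.0289). After adjusting for the receptor share it was at 0.08.

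**Figure D2:**
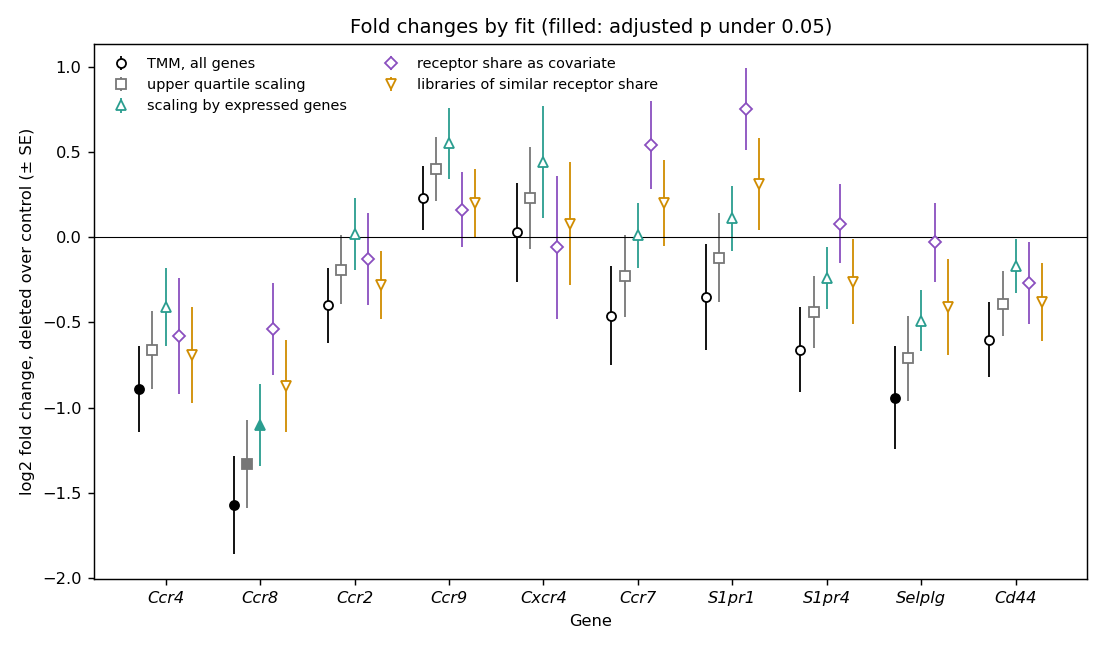
Log2 fold change (± SE) of deleted over control for the 10 genes in 5 fits, on all 13 libraries except for the fit on the 9 libraries of similar receptor share. Filled symbols passed an adjusted p under 0.05. Ccr8 was called by the 3 scalings shown, and no gene was called after adjusting for the receptor share or in libraries of similar share.

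Ratios within a library do not depend on its scaling. Deleted libraries had a log2 ratio of Ccr7 to Ccr8 raw counts of 3.21 ± 0.29 (SD, n = 6) and controls one of 2.14 ± 0.38 (SD, n = 7), with ranges of 2.81 to 3.47 and 1.88 to 2.94. Relative to Ccr8, Ccr7 was thus higher in deleted libraries, with a small overlap between the groups. The log2 ratio of S1pr1 to Selplg was -0.36 ± 0.36 (SD, n = 6) against -0.97 ± 0.16 (SD, n = 7). Of all 45 pairs among the 10 genes, the ratio of Ccr8 to Ccr9 was the 1 without overlap, at -2.26 to -1.51 in deleted and -1.48 to 1.23 in control libraries. Ccr8 counts followed the total count (r = 0.96) and Ccr9 counts did not (r = 0.11), and totals differed between the groups, so this ratio and depth cannot be told apart. These ratios were chosen after their values were seen and carry no test. The share of pairs without overlap among all genes was not worked out, so the count of 1 in 45 has no background. For single genes the groups were without overlap in 1.44% (deleted lower) and 0.673% (deleted higher) of those tested.

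The remaining 3 receptors showed no fall that passed the test. Ccr2 (gene number 12772; chromosome 9, 124101918 to 124109140), the CCL2 receptor of monocytes and of some effector Treg cells, was at 36.0, 44.0 and 49.1 CPM in deleted and 32.0, 54.6 and 90.4 CPM in control libraries, with -0.40 (SE 0.22, adjusted p = 0.252 by edgeR's quasi-likelihood test). The deleted range lay within that of the controls, and scaling by genes of at least 50 mean CPM put the Ccr2 value at 0.02. Monocyte and macrophage markers (10 of 10 in the table, none at 0 in any library) summed to 131 to 179 CPM and 96.7 to 204 CPM in the groups, and none was called by edgeR; their part in the Ccr2 level was not tested. Ccr9 (gene number 12769; chromosome 9, 123767211 to 123783457), the CCL25 receptor for gut and thymus, was at 64.5, 76.1 and 88.8 CPM in deleted and 48.1, 60.9 and 85.2 CPM in control libraries, with 0.23 (SE 0.19, adjusted p = 0.465). No deleted library lay below the control median, and 5 of the 6 lay within the control range. Scaling moved the Ccr9 value to 0.40 (upper quartile), 0.53 (library size alone) and 0.55 (genes of at least 50 mean CPM), with adjusted p of 0.173, 0.0885 and 0.0927. Cxcr4 (gene number 12767; chromosome 1, 128588199 to 128592299), the CXCL12 receptor for bone marrow homing, was at 7.48, 13.4 and 24.3 CPM and 9.76, 13.3 and 20 CPM, with 0.03 (SE 0.29, adjusted p = 0.967). Its CPM, again not per length, stood between the 72.5 and 98.5 percentile of sensory receptor genes, so a difference in Cxcr4 may not be detectable at this depth.

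Ccr9 also stood apart in its raw counts. They ran from 240 to 390 in deleted and from 256 to 426 in control libraries, a highest to lowest ratio of 1.77, while total counts spanned a ratio of 3.12. Across the 13 libraries the correlation of raw count with total count was 0.11 for Ccr9 and 0.47 for Cxcr4, and 0.82 to 0.98 for the other 8 genes. The median raw count of sensory receptor genes was likewise 13 to 23 in every library. Ccr9 was above their 99th percentile in all 13 libraries. What the Ccr9 reads are was not worked out.

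**Figure D3:**
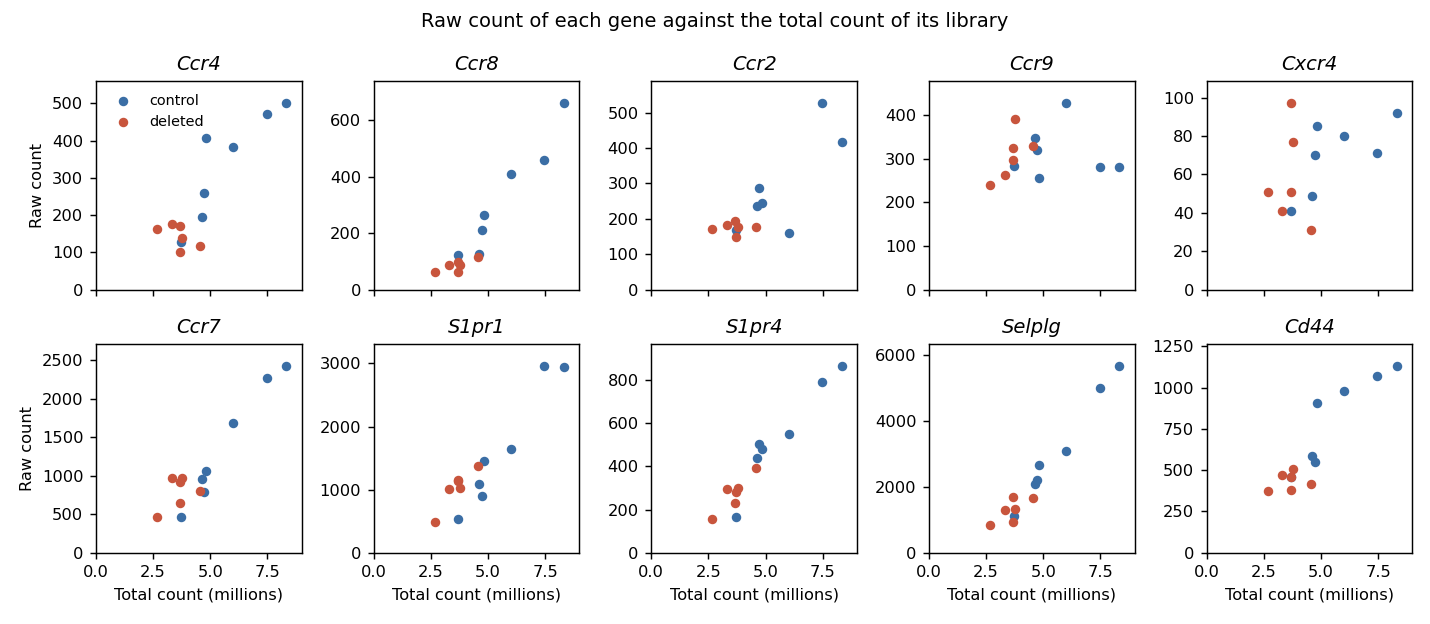
Raw count of each homing gene (vertical axis, from 0) against the total count of its library in units of 1e+06 counts, for 7 control and 6 deleted libraries. Selplg, S1pr4 and Ccr8 follow the total closely (r of 0.98, 0.97 and 0.96), and Ccr9 does not (0.11).

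Within the groups, the homing genes varied together in blocks. As a description over 13 libraries that share depth and receptor share, the correlation of log2 CPM deviations from the group mean was 0.92 for Ccr7 and Selplg, 0.91 for Ccr7 and S1pr1, 0.91 for S1pr4 and Selplg and 0.87 for Ccr4 and Cd44. Ccr2 and Ccr9, neighbours on chromosome 9, ran in opposite directions (r = -0.83). Control replicate 4 had the highest Ccr2 and the lowest Ccr9 level (90.4 and 48.1 CPM), and control replicate 6 the lowest Ccr2 and, among controls, the highest Ccr9 level (32.0 and 85.2 CPM). Levels themselves fell as the receptor share rose for S1pr4 (r = -0.87), Selplg (-0.84), Ccr8 (-0.80), S1pr1 (-0.75), Ccr7 (-0.74), Cd44 (-0.68), Ccr4 (-0.58) and Ccr2 (-0.46), but not for Ccr9 (0.30) and Cxcr4 (0.13).

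**Figure D4:**
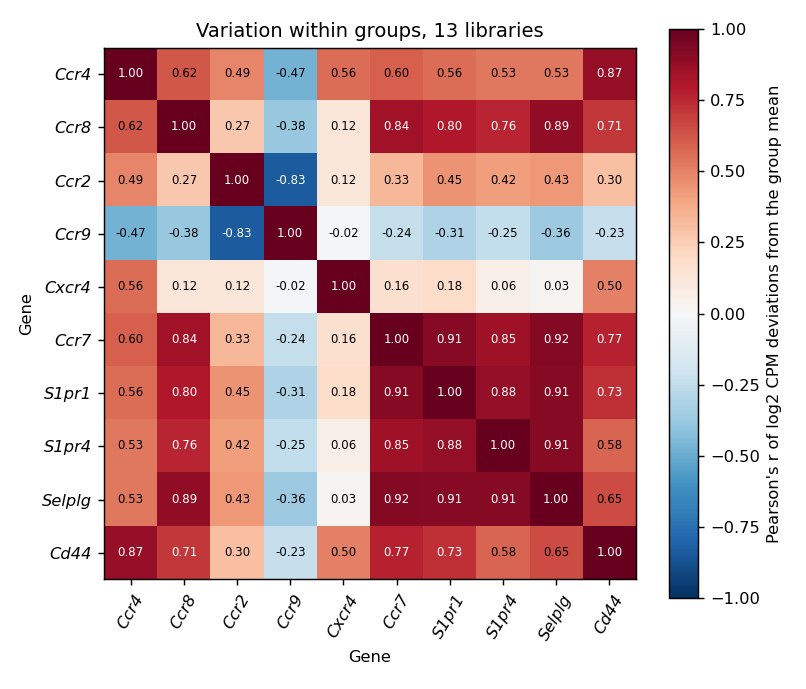
Pearson's r between homing genes, computed on deviations of log2 CPM from the group mean over 13 libraries. Ccr7, S1pr1, S1pr4, Selplg and Ccr8 form a block with r of 0.76 to 0.92, and Ccr9 has negative values with every other gene.

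Among 5204 genes of at least 50 mean CPM, those whose log2 CPM ran most like a homing gene over the 13 libraries were Coro1a for Selplg (r = 0.99), Rpp21 for Ccr8 (0.99), Jak1 for S1pr1 (0.98), Tnfrsf25 for S1pr4 (0.98) and Tmod3 for Ccr7 (0.97). For Cd44 it was Trmt1l (0.95), for Ccr4 it was Cd44 (0.92), for Ccr2 Flcn (0.87), for Ccr9 Pdik1l (0.86) and for Cxcr4 Rprd2 (0.82). These values describe likeness across both genotypes and carry no test.

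The other genes of the homing machinery were read from 6 lists, whose counts stand beside 8.52% of all genes and 23.8% of genes of at least 50 mean CPM called lower. Of 18 further chemokine receptor genes, 6 fell, 1 rose and 11 did not pass it, with a median log2 fold change of 0.11. Cxcr3, the receptor of inflamed tissue, changed by -3.90 (SE 0.37, adjusted p = 4.2e-06 by edgeR's quasi-likelihood test). Ccr6, the CCL20 receptor, changed by -1.76 (SE 0.26, adjusted p = 0.000269 by the same test). Ccr6 lay under the 90th percentile of sensory receptor genes in deleted replicates 4 (41 against 66 reads), 5 (54 against 79) and 7 (28 against 81). The size of the Ccr6 fall is therefore uncertain. Cxcr3 was at 1.45 to 11.3 CPM in deleted and 56.9 to 154 CPM in control libraries. In every deleted library it lay under the 90th percentile of sensory receptor genes (14.7 to 23.1 CPM there), so the size of its fall is uncertain. Ccr10, a skin-homing receptor gene, had 3 reads in all over the 6 deleted libraries, 4 of which were at 0, and 5 to 51 reads in each control library. It passed the low-count filter through the control libraries alone, so its counts are given as a description, although it is among the 6. Cxcr3 and Ccr6 also passed after adjusting for the receptor share (adjusted p = 6.17e-05 and 0.0108), where none of the 10 homing genes did (0 at an unadjusted p under 0.05 among those lower). In that fit 0.233% of all genes were called lower. Of 24 chemokine ligand genes tested, Ccl5 fell (-2.84, SE 0.46), Cxcl11 rose and 22 did not pass the test, among them Cxcl10 (-1.01, SE 0.34). Cxcl11 rose from a low level (1.16, SE 0.36), a call lost in 10 of 13 fits that left out 1 library. Ccl5 was at 5.99 to 12.1 CPM in deleted libraries, again under the 90th percentile of sensory receptor genes, and at 17.3 to 202 CPM in controls. After adjusting for the receptor share Cxcl10 passed (-1.84, adjusted p = 0.0429 by edgeR), and Ccl5 (-1.07, adjusted p = 0.394) and Cxcl11 (adjusted p = 0.833) did not. Cxcl10 was at 3.13 to 14.3 CPM in deleted libraries, under the 90th percentile of sensory receptor genes in each, so the size of its difference is uncertain. It also lay under that percentile in control replicates 5 (48 against 52 reads) and 7 (57 against 67 reads). In libraries of similar share, by the same edgeR test, Ccl5 passed (-1.79, adjusted p = 0.017). There Cxcl10 (-1.34, adjusted p = 0.141) and Cxcl11 (0.71, adjusted p = 0.56) did not.

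In the S1P list, 3 of 16 (0 to 4 as single libraries were left out) genes fell and 13 did not pass it, with a median of -0.13. Those that fell were Cers2, a ceramide synthase (-0.85, SE 0.25), Sphk2, a sphingosine kinase (-0.63, SE 0.19), and Sgpl1, the lyase that breaks down S1P (-0.71, SE 0.22). None of these 3 passed after adjusting for the receptor share, by upper quartile scaling (adjusted p = 0.0628, 0.117 and 0.0913), by library size alone or by scaling on genes of at least 50 mean CPM. Leaving out 1 library ended the calls in 7, 9 and 8 of 13 fits. Klf2, a transcription factor that induces S1pr1, and Cd69, which removes S1PR1 from the surface, were picked with their values known and stood at 0.26 (SE 0.25) and -0.37 (SE 0.28). Klf2 passed as higher with that covariate (0.92, adjusted p = 0.0417), and Cd69 did not (adjusted p = 0.536). Klf2 also passed among genes of at least 50 mean CPM tested alone (0.62, adjusted p = 0.0146 by edgeR). In libraries of similar share Klf2 (0.58, adjusted p = 0.436) and Cd69 (0.23, adjusted p = 0.844) did not pass.

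Of 19 genes for selectin binding and selectin ligand synthesis, 2 fell (1 to 3 as single libraries were left out), a share near that over all genes, and 17 did not pass it, with a median of -0.28. Tpst2, which sulfates tyrosines as on PSGL-1, fell by 1.21 (SE 0.26) and Gcnt1, which makes branched O-glycans, fell by 0.84 (SE 0.26). Neither passed once that share was a covariate (adjusted p = 0.647 and 0.0844). Gcnt1 also missed the threshold by upper quartile scaling (adjusted p = 0.134), by library size alone (0.271), by scaling on genes of at least 50 mean CPM (0.316) and in 9 of 13 fits that left out 1 library. Fut7, the fucosyltransferase for selectin ligands, was at 0.723 to 6.28 CPM in deleted and 6.40 to 17.3 CPM in control libraries, with -1.27 (SE 0.42, adjusted p = 0.053 by edgeR's quasi-likelihood test). Its groups did not overlap, by a narrow margin, as held for 1.44% of all genes tested, and it did not pass the test. Fut7 exceeded the 90th percentile of sensory receptor genes in control replicates 4 (68 against 58 reads) and 5 (97 against 52 reads). In the other libraries Fut7 lay under it, and Cxcl11 and Ccr10 lay under it in every library.

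Of 20 genes listed for CD44 and its cytoskeletal anchors, Itm2b (-1.26, SE 0.33) and Slc9a3r1, an ezrin-binding scaffold (-1.05, SE 0.29), fell. The other 18 did not pass the test, and the median was -0.20. Whether Itm2b has a tie to CD44 was not examined. The count of 2 is near the share over all genes and below that of genes of at least 50 mean CPM, a level that 16 of the 20 reached. It ran from 0 to 3 as single libraries were left out. Of 26 genes for receptor coupling and desensitization, 7 fell, 1 rose and 18 did not pass it, with a median of -0.45. The share that fell is above the 8.52% over all genes and near the 23.8% of genes of at least 50 mean CPM. Of the 26 genes, 17 reached that level. The count ran from 3 to 10 as single libraries were left out. Gng2 (-1.38, SE 0.26) and Gnb2 (-1.05, SE 0.26) encode G protein subunits, and Rgs1 (-1.24, SE 0.32) encodes a brake on chemokine receptor signalling. None of the genes named in this paragraph passed after adjusting for the receptor share. Of the Treg markers 6 of 8 were called lower, beside 8.52% of all genes and 23.8% of genes of at least 50 mean CPM. The chemokine receptor and ligand lists had medians of 0.11 and 0.21, and of -0.06 and -0.17 after adjusting for the receptor share. In those 2 lists 0 of 18 and 1 of 24 genes tested reached 50 mean CPM, so their medians rest on low counts. The part of the Treg markers in any of the 6 lists was not tested.

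**Figure D5:**
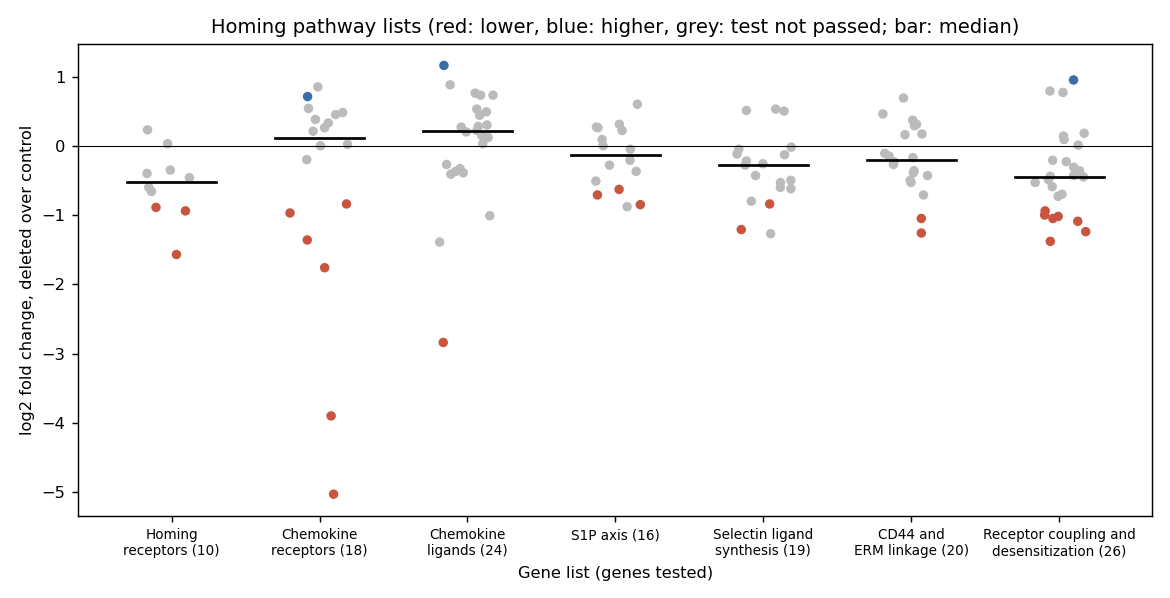
Log2 fold change of deleted over control for the 10 homing genes and for the genes tested in 6 lists. Points are genes (red lower, blue higher, grey not past the test) and bars medians, from -0.53 for the homing genes to 0.21 for chemokine ligands. The lowest point is Ccr10, whose fitted value rests on 3 reads in the deleted group.

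B cells, which also use Ccr7, Cxcr4 and Cd44, had markers (10 of 10 in the table, none at 0 in any library) that summed to 269 to 329 CPM in deleted and 492 to 1235 CPM in control libraries. Of these, 3 were called lower, with Ighm at 85.2 ± 27.4 CPM (SD, n = 6) in deleted libraries and 596 ± 254 CPM in controls (SD, n = 7), and Ms4a1 was called higher. Dendritic cell markers, a cell type that uses Ccr7, summed to 194 to 257 CPM and 208 to 336 CPM (8 of 8 in the table, none at 0 in any library; 1 called lower, 2 higher). Neutrophil markers summed to 51.2 to 70.1 CPM and 32.0 to 57.4 CPM, NK cell markers to 66.8 to 148 CPM and 63.9 to 128 CPM, CD8 T cell markers to 25.8 to 54.9 CPM and 40.5 to 60 CPM, and erythroid markers to 26.3 to 38.0 CPM and 17.3 to 39.0 CPM. Of these last 4 lists S100a8, Gzma, Hba-a1 and Hbb-bs were at 0 in at least 1 library, and no gene was called by edgeR. The part of these cells in the homing gene levels was not tested.

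The authors' deposited table gave a mean log2 fold change of -1.51 for Ccr8 (mean false discovery rate 0.00392). In the authors' deposited table Ccr4 was at -0.87 (0.0317) and Selplg at -0.91 (0.036), and the mean false discovery rate of the other 7 genes was above the threshold of 0.05, from 0.0702 for Cd44 to 0.96 for Cxcr4. In a further column of the authors' deposited table, labelled as a maximum, Cd44 was at 0.0313 and the call set otherwise did not change. The authors' deposited table rests on the same counts.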

How the data were processed

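Per the labels' protocols, RNA of sorted splenic Treg cells was amplified with a SMART-Seq v4 kit. The deposited values are raw counts for each gene. Per the submitters' processing notes, the tools include featureCounts 2.0.1, edgeR 3.28 and DESeq2 1.26.0, on GRCm38 (mm10). The aligner, strandedness and annotation were not given in the sources used here. Log2 fold changes and p-values that the authors deposited were only compared. Deposited group mean counts (signal) were not used.

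Here, counts passed through filterByExpr, TMM scaling and the quasi-likelihood test of edgeR 4.0.16 (in R 4.3.3), with genotype as the only term, Benjamini-Hochberg over all genes tested, threshold 0.05. DESeq2 1.42.0 and limma 3.58.1 (voom with sample weights) were alternatives, with those named in the closing section. Levels are TMM-scaled CPM. Transcript lengths were not used, so percentiles of CPM among sensory receptor genes are a guide to background and not a comparison of expression. Of 26720 genes, 25623 had a symbol.

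The 10 genes, the lists, the cutoff of 50 mean CPM and the receptor share limits were chosen with earlier results of these data known; library size scaling was added after seeing the data. Besides the 10 genes, up to 3 genes of smallest p per list and the nearest gene of each member are named; any other gene is a marker or targeted gene, or is said to be picked with its value known. Some genes of the lists are not reported here. Within groups, no pair of libraries agreed within sampling noise (chi-square per degree of freedom at least 6.79).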

Additional observations from a re-analysis of the deposited data

How the results depend on the processing

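The 3 homing genes called lower became 1 (Ccr8) by upper quartile scaling, scaling by genes of at least 50 mean CPM and library size alone. Among genes of at least 50 mean CPM tested alone, 1 of 8 was called (Selplg), and Ccr8 was not tested. The number was 0 with the receptor share as a covariate or in libraries of similar share, and 5 by limma-voom. DESeq2 gave 4. Leaving out a library gave 1 to 5 (beside 4.26 to 13.6% of all genes called lower), and no setting called one higher. Ccr8 was called in all 13 such fits (-1.69 to -1.34). Genes called lower, 2050, became 1208, 699, 790 and 813 in the first 4 settings (in that order), 56 with the covariate and 101 in libraries of similar share. Genes called higher, 400, became 761, 882, 1090 and 488, then 54 and 38. DESeq2 gave 710 higher, and limma-voom 1174 higher and 2938 lower. Leaving out a library gave 1034 to 3245 lower and 167 to 860 higher.

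Signs that turned belonged to genes that did not pass the test. By scaling on genes of at least 50 mean CPM, Ccr2 was at 0.02, Ccr7 at 0.01 and S1pr1 at 0.11, and the same among those genes alone. With the covariate, Ccr7 was at 0.54, S1pr1 at 0.75, S1pr4 at 0.08 and Cxcr4 at -0.06. In libraries of similar share Ccr7 was at 0.20 and S1pr1 at 0.31, and S1pr1 was at 0.04 by library size alone. Cxcr4 ranged from -0.15 to 0.16 as libraries were left out. The cause was not tested.

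No pairing by replicate number was seen: of 6 same-numbered pairs, 1 correlated above 0.1 (range -0.321 to 0.414), and 0 deleted libraries correlated best with their own number. The libraries also differ in depth and receptor share, so this check cannot exclude a pairing. With the replicate block, which leaves out control replicate 6, 1 homing gene (Ccr8), 736 genes lower and 121 higher were called. The same libraries without the block gave 1 homing gene (Ccr8), 1428 genes lower and 253 higher. Of 24 sets of libraries examined for a value far from the rest, 0 had one, where chance gives about 1.2. Low counts limit Cxcr4 and, in deleted libraries, Ccr8.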
